A study of Mus musculus with 17 samples.

Results

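Genes for mitochondrial ribosomal proteins were followed in kidney cortex RNA of mice with and without induced loss of CCN2, 4 h after ischemia-reperfusion injury (IRI) or a sham operation. They were taken as every row of the deposited expression table whose symbol is Mrpl or Mrps followed by a number and at most 1 letter, which gave 76 of 38293 rows, 47 named Mrpl and 29 named Mrps. Every mouse was a C57Bl6/J male, 12 to 14 weeks old when treated, that carried CCN2 Flox/Flox together with ROSA26CreERT2, a Cre recombinase activated by tamoxifen and not tied to 1 kidney cell type. Mice labelled CCN2 KO received 4 injections of tamoxifen in corn oil and mice labelled WT received 4 of corn oil alone, followed by a washout of 14 days, so effects of tamoxifen and of genotype cannot be told apart. IRI mice had both renal pedicles clamped for 25 min, sham mice had the same surgery without clamping, and kidneys were taken 4 h later, giving 4 WT sham (32A1, 32A2, 33A1 and 33A2), 4 WT IRI (33C1 to 33C4), 4 CCN2 KO sham (32B4, 32B5, 33B3 and 33B4) and 5 CCN2 KO IRI kidneys (33D2 to 33D6). Values are log2 RPKM (reads per kilobase of gene, scaled to library size), quantile-normalized across libraries by the authors, with a floor at an RPKM of 0.1. Read totals per library were not at hand, so the depth behind the values is unknown.

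Mitochondria carry a ribosome of their own, which translates the few messenger RNAs encoded in mitochondrial DNA, all for subunits of the respiratory chain and ATP synthase. Its ribosomal RNAs come from mitochondrial DNA, while all of its proteins are encoded in the nucleus, made in the cytosol and imported. Part of these proteins have a counterpart in the bacterial ribosome and part are found only in mitochondria. The small subunit decodes the messenger RNA, and the large subunit joins amino acids and passes the new chain through its exit tunnel toward the inner membrane. Proximal tubule cells are rich in mitochondria and depend on oxidative metabolism for solute transport. A symbol does not always give the place of a protein: Mrps30 and Mrps18a encode proteins of the large subunit, and the product of Mrps36 belongs to the 2-oxoglutarate dehydrogenase complex, so that Mrps36 was counted in neither subunit.

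Expression above an RPKM of 1 in 4 kidneys or more was required for testing, which 75 of the 76 genes met; the other, Mrpl53 (a large-subunit protein), lay at the floor in 14 of 17 kidneys. The 75 lie on 17 chromosomes, none of them X or Y. Their mean level over the 17 kidneys had a median of 4.31 (RPKM of 19.8), beside 2.60 (RPKM of 6.07) over all 12608 genes that passed the same filter, and 65 of the 75 were above that median. Mrpl42 was highest at 6.66, an RPKM of 101, ahead of Mrpl12 and Mrpl20, and Mrpl23, an exit tunnel protein, lowest at 0.03, an RPKM of 1.02, below Mrps10 and Mrps36. Within groups the median SD of a member was 0.165, against 0.238 over all genes tested.

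Ctgf, which encodes CCN2, was 2.65, 3.95, 3.91 and 4.26 in WT sham, 2.87, 2.95, 3.92 and 3.91 in CCN2 KO sham, 4.95, 5.02, 4.41 and 3.92 in WT IRI and 5.04, 3.75, 4.16, 4.33 and 3.86 in CCN2 KO IRI kidneys. The values overlapped between the labels in sham and in IRI kidneys, so this gene-wide value, to which reads from exons left after recombination would count, did not check the labels. The study assessed recombination by its own measurement of CCN2 mRNA, which is not analysed here, and groups are named below as labelled. Tissue identity was plain, with all 12 proximal tubule markers passing the filter and Slc34a1, the sodium-phosphate cotransporter, at 10.6 or more in every kidney. All 7 tubular injury markers (among them Havcr1, Lcn2 and Krt20) rose after IRI under both labels. Their summed RPKM was 29.2 to 48.6 in WT sham, 23.7 to 47.1 in CCN2 KO sham, 771 to 947 in WT IRI and 128 to 703 in CCN2 KO IRI kidneys. Kidney 33D6 had the 128 and the other 4 of its group at least 457. Pairs of kidneys of 1 group correlated at 0.949 to 0.977 and pairs across groups at 0.916 to 0.972 (Pearson r across genes).

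RefSeq (GRCm38.p6) gave a promoter, 250 bases before to 50 after the start, for 67 of the 76 genes. Shown 5′ to 3′ on the strand of the gene are 6 of them, those with the largest differences past the test among the members named by the rule, which leaves out Mrps21 because its groups overlapped, so that the genes the results turn on can be read beside recognition cores known from nuclear genes for mitochondria. Capitals mark matches, on either strand, to GCGCANGCG (core of the NRF1 site), CCGGAAG (ETS core, which GABP binds) or AAGATGG (YY1 core); Mrpl11 holds none of the 3.
Mrps18b, chr17:35916391-35916690, minus strand: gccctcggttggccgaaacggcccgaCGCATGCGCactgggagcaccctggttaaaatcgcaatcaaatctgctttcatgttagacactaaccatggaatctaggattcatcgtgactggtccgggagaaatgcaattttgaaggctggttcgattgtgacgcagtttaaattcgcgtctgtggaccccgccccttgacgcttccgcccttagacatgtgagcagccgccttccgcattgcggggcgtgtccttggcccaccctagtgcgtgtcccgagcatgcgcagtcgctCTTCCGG
Mrps33, chr6:39810887-39811186, minus strand: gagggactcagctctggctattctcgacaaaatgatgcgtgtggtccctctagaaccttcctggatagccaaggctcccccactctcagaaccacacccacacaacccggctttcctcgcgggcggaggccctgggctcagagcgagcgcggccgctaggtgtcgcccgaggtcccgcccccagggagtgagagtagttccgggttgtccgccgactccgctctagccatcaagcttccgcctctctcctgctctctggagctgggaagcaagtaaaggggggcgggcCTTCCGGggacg
Mrps11, chr7:78782881-78783180, plus strand: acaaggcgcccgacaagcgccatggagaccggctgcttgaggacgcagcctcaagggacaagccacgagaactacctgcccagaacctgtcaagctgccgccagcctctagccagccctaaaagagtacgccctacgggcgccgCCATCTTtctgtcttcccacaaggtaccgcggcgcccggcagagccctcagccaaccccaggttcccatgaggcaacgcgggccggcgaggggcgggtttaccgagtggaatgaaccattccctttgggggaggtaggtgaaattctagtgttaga
Mrpl11, chr19:4962056-4962355, plus strand: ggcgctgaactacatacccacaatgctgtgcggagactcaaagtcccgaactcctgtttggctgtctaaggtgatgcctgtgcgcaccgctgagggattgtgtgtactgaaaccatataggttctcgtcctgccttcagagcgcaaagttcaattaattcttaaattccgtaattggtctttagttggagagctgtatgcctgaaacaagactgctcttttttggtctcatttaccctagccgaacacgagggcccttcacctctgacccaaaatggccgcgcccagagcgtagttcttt
Mrps18c, chr5:100798509-100798808, plus strand: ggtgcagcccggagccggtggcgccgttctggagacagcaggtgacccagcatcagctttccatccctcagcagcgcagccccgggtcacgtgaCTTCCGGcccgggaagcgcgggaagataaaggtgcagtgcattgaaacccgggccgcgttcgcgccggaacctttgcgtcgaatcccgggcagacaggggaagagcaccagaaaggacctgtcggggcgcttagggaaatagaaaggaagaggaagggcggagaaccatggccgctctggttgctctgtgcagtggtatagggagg
Mrpl57, chr14:57825989-57826288, plus strand: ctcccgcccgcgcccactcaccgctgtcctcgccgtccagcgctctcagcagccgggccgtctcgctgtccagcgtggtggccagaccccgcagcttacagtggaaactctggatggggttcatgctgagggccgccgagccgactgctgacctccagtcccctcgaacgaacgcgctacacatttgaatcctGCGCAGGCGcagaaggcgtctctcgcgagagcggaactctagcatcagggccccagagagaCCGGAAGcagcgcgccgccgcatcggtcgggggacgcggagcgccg

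The NRF1 core was present in 16 of the 67 promoters (23.9%), the ETS core in 24 (35.8%) and the YY1 core in 13 (19.4%). Over all 27025 genes with a promoter the shares were 7.03%, 9.93% and 7.28%, and over the 9094 of them that were tested here 15.3%, 20.1% and 8.57%. Among 60 genes for cytosolic ribosomal proteins they were 15.0%, 41.7% and 16.7%. The median log2 difference between WT IRI and WT sham was −0.27 with and −0.23 without the NRF1 core, and −0.25 with and −0.22 without the ETS core. Under the CCN2 KO label it was −0.26 with and −0.33 without the NRF1 core, and −0.33 with and −0.30 without the ETS core. A match here is a description of letters and not a mapped binding site.

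The mean level of the family was highest in WT sham and lowest in CCN2 KO IRI kidneys. With kidneys centred on cytosolic ribosomal protein genes, the members' median difference between the IRI groups turned to 0.07, against 0.30 over all genes. The mean of the 75 genes was 4.27, 4.20, 4.25 and 4.18 in WT sham kidneys and 4.00, 3.94, 4.13 and 4.07 in WT IRI kidneys. It was 4.17, 4.25, 4.10 and 4.02 in CCN2 KO sham and 3.81, 3.81, 3.77, 3.92 and 3.83 in CCN2 KO IRI kidneys. Every WT IRI kidney lay below every WT sham kidney, every CCN2 KO IRI kidney lay below all others, and the sham groups overlapped. Summed over the 75 genes, RPKM was 1987 ± 49.2 (SD, n = 4) in WT sham, 1832 ± 128 (n = 4) in CCN2 KO sham, 1697 ± 110 (n = 4) in WT IRI and 1491 ± 61.1 (n = 5) in CCN2 KO IRI kidneys. These averages are a description, and the tests were made gene by gene. In RNA from whole cortex, fewer cells of a type and less of an RNA in each cell cannot be told apart.

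**Figure D1:**
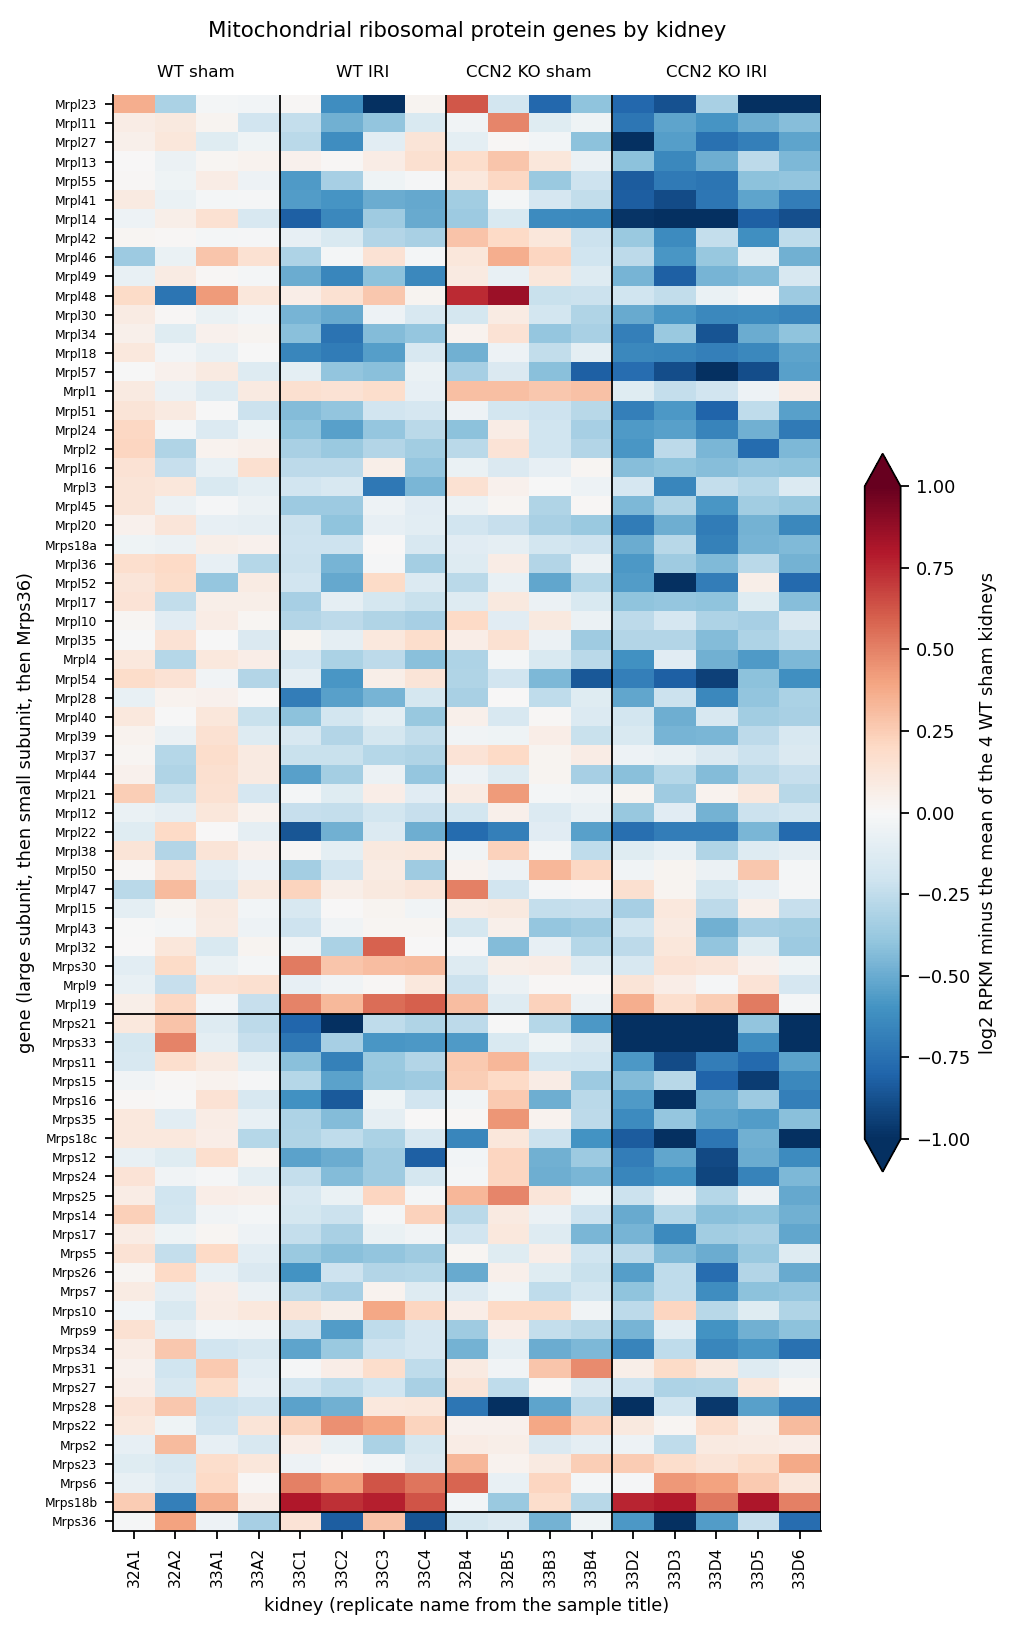
Log2 RPKM of each of the 75 tested genes (rows) in each of the 17 kidneys (columns), minus the mean of the 4 WT sham kidneys for that gene; blue is lower, red is higher, and the color scale ends at −1 and 1. Most rows turn blue in IRI kidneys, more so in the 5 labelled CCN2 KO IRI. Relative to cytosolic ribosomal protein genes the members' median difference between the IRI groups is 0.07, against 0.30 over all genes. Mrps18b, Mrps6, Mrps22, Mrps30 and Mrpl19 are red in the 4 WT IRI kidneys.

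The first comparison asked how the family responded to IRI in WT mice. Of 75 genes, 21 fell (28.0%, with 20.3% of all 12608 genes tested falling) and 5 rose (6.67%, with 19.5% of all genes rising), with 62 of the 75 log2 differences below 0 and a median of −0.22, against −0.05 over all genes. Complete separation of the 4 IRI from the 4 sham kidneys toward lower values was seen in 22 members (29.3%) and in 18.9% of all genes. By subunit, 16 of 48 large-subunit genes and 5 of 26 small-subunit genes fell, with medians of −0.22 and −0.23. Of the 45 genes with a bacterial counterpart 14 fell and 2 rose, and of the 29 mitochondria-specific genes 7 fell and 3 rose. Mrps18b, though a relative of bacterial S18, was counted among the mitochondria-specific genes.

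Mrpl41, a mitochondria-specific protein of the large subunit, was 5.37, 5.21, 5.26 and 5.26 in WT sham and 4.72, 4.69, 4.78 and 4.76 in WT IRI kidneys. The gap between the groups was wider than the range within either, and the log2 difference was −0.54 ± 0.09 (SE, adjusted p = 0.00017). Mrpl14, on the large-subunit face toward the small subunit, went from 5.17, 5.28, 5.38 and 5.06 to 4.41, 4.58, 4.87 and 4.72, a difference of −0.58 ± 0.12 (adjusted p = 0.00146) with no overlap. Mrpl49, a mitochondria-specific large-subunit protein, went from 4.56, 4.72, 4.65 and 4.62 to 4.14, 3.99, 4.22 and 3.99 (−0.55 ± 0.11, adjusted p = 0.00103). Again all 4 IRI kidneys were below all sham kidneys. Mrps12, the protein beside the decoding centre, fell by 0.55 on the log2 scale (SE 0.14, adjusted p = 0.00568), and Mrps33, a small mitochondria-specific protein of the small subunit, also by 0.55 (SE 0.17, adjusted p = 0.0141). Mrpl18, of the central protuberance, fell by 0.52 (adjusted p = 0.00188), Mrpl34 by 0.49 (adjusted p = 0.0068) and Mrpl22, of the exit tunnel, by 0.49 (adjusted p = 0.0154). For all 5 of these genes the IRI kidneys lay below the sham kidneys without overlap, and the Mrpl22 call was lost without 33C1.

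Among the proteins of the stalk, where translation factors dock on the large subunit, Mrpl10 fell by 0.30 (SE 0.08, adjusted p = 0.0072). For its partners the differences missed the threshold, with −0.32 for Mrpl11 (adjusted p = 0.0545) and −0.22 for Mrpl12 (adjusted p = 0.0536). Mrpl3 fell by 0.38 (adjusted p = 0.0314) and Mrpl44, a mitochondria-specific protein with a ribonuclease fold, by 0.33 (adjusted p = 0.0319). The Mrpl3 call was lost without 32A1, 32A2, 33C3 or 33C4, and the Mrpl44 call without 32A1, 33A1, 33A2, 33C1, 33C2 or 33C4. Mrpl45, which holds the exit tunnel near the inner membrane, had a difference of −0.22 (adjusted p = 0.0875) and Mrps34 one of −0.32 (adjusted p = 0.0635).

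The 5 genes that rose in WT kidneys were Mrps18b, Mrps6, Mrpl19, Mrps30 and Mrps22. Mrps18b, 1 of 3 mammalian relatives of bacterial S18, was 3.70, 2.77, 3.81 and 3.53 in WT sham and 4.26, 4.18, 4.23 and 4.08 in WT IRI kidneys. Every IRI kidney was above every sham kidney, with a log2 difference of 0.73 ± 0.18 (SE, adjusted p = 0.00388), or 0.51 without the low sham kidney 32A2. Mrps6, of the small-subunit platform, went from 4.41, 4.35, 4.69 and 4.50 to 4.99, 4.90, 5.12 and 5.03 (0.52 ± 0.13, adjusted p = 0.00567). It shares its strand with the overlapping gene Slc5a3, a myo-inositol transporter, whose own difference was 0.60 (adjusted p = 0.0873), and reads that fit both genes cannot be assigned. Mrpl19 rose by 0.49 (SE 0.14, adjusted p = 0.0105), Mrps30 by 0.36 (SE 0.09, adjusted p = 0.00676) and Mrps22 by 0.32 (SE 0.10, adjusted p = 0.0194), each without overlap, and the Mrps22 call was lost without 33A1, 33C2 or 33C3. The counts depended on scaling: with each kidney centred on its cytosolic ribosomal protein genes, which moved the median of all genes from −0.05 to 0.10, 4 members rose and 2 (Mrpl14 and Mrpl41) fell (2211 and 975 of all genes), and with an adjustment for gene length 5 rose and 11 fell (2566 and 2368 of all genes).

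The same question in mice labelled CCN2 KO gave 36 of 75 genes that fell after IRI (48.0%, with 13.2% of all genes tested falling) and 1 that rose (1.33%, with 14.3% of all genes rising). The median was −0.30, against −0.02 over all genes, and 68 of the 75 differences were below 0. Separation of all 5 IRI from all 4 sham kidneys toward lower values was seen in 24 of 75 members and in 9.24% of all genes. Large-subunit genes fell in 24 of 48 cases (median −0.32) and small-subunit genes in 12 of 26 (median −0.28). Genes with a bacterial counterpart fell in 25 of 45 cases and mitochondria-specific ones in 11 of 29.

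Mrps33 was 2.53, 2.95, 3.05 and 2.96 in CCN2 KO sham and 2.10, 1.92, 1.96, 2.48 and 2.09 in CCN2 KO IRI kidneys. The highest IRI kidney (33D5) was just below the lowest sham kidney, and the log2 difference was −0.76 ± 0.16 (SE, adjusted p = 0.00226). Mrps11, of the small-subunit platform, went from 3.56, 3.63, 3.12 and 3.10 to 2.73, 2.41, 2.61, 2.53 and 2.77, a difference of −0.74 ± 0.13 (adjusted p = 0.000663). Every one of its 5 IRI kidneys was below the sham kidneys. Mrpl11, the stalk base protein, went from 3.46, 3.99, 3.38 and 3.46 to 2.78, 2.98, 2.91, 3.02 and 3.07 (−0.62 ± 0.12, adjusted p = 0.0014). Its sham value in 32B5 stood above the other 3, and without that kidney the difference was −0.48, still past the test.

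Mrpl13 went from 2.42, 2.52, 2.36 and 2.19 to 1.84, 1.60, 1.76, 1.99 and 1.80, without overlap (−0.58 ± 0.09, adjusted p = 0.000421). Mrpl41 fell by the same 0.54 as in WT kidneys (SE 0.08, adjusted p = 0.000295), from 4.93, 5.26, 5.11 and 5.03 to 4.45, 4.38, 4.55, 4.75 and 4.58. Mrpl42, the most abundant member, fell by 0.52 (SE 0.11, adjusted p = 0.00241), to between 6.19 and 6.58 from between 6.60 and 7.10. Mrpl27 fell by 0.59 (adjusted p = 0.00587), Mrps35 by 0.56 (adjusted p = 0.00375), Mrpl55 by 0.55 (adjusted p = 0.00778), Mrpl14 by 0.53 (adjusted p = 0.00341) and Mrpl1 by 0.40 (adjusted p = 0.00394), all without overlap. Mrps21, whose groups overlapped in 1 kidney (33D5), had the lowest difference of all members past the test, −0.83 ± 0.22 (adjusted p = 0.0121), and is named because of that value.

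Mrps18b was again the exception, with 3.42, 3.08, 3.63 and 3.17 in CCN2 KO sham and 4.22, 4.24, 3.98, 4.26 and 3.96 in CCN2 KO IRI kidneys. It rose by 0.81 ± 0.17 (SE, adjusted p = 0.00256), without overlap and past the test with any 1 kidney left out. Mrps6, Mrpl19, Mrps30 and Mrps22 had differences of 0.06, 0.17, 0.05 and −0.04 in this comparison, none past the test (adjusted p from 0.372 to 0.776). Of the 21 members that fell in WT kidneys, 14 (66.7%) were among the 36 that fell here (38.9% of those). The same overlap over all genes is not given here, so it is not read as a trait of the family. Without kidney 32B5, 22 members fell and 1 rose, while the genes that fell among all 12608 went from 1663 to 1147. With kidneys centred on cytosolic ribosomal protein genes 2 members fell and 1 rose, at a median of −0.02, against 0.27 over all genes. Of all genes 241 fell and 2629 rose in that fit. With an adjustment for gene length 18 members fell and 1 rose, and 1351 of all genes fell and 1687 rose. In kidneys whose titles begin with 33, which hold 2 of the 4 sham kidneys of each label, 11 members fell and 1 rose (917 and 1176 of all genes), and with the title prefix as a term 18 fell and 1 rose (1006 and 1197 of all genes); the labels do not say what the prefix stands for.

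**Figure D2:**
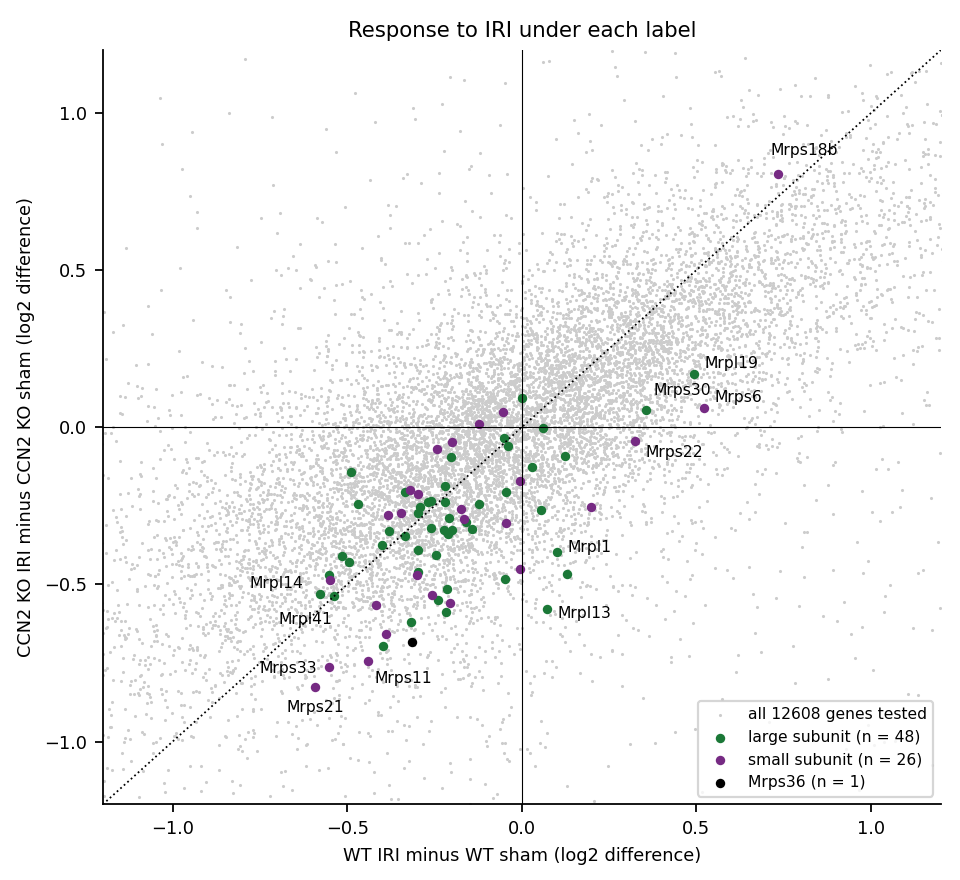
Log2 difference of IRI and sham kidneys under the WT label (horizontal axis) and the CCN2 KO label (vertical axis) for 48 large-subunit genes (green), 26 small-subunit genes (purple), Mrps36 (black) and, within the axis limits, all 12608 genes tested (grey); the dotted line marks equal differences. Of the 75 members 59 lie below 0 on both axes, Mrps18b stands alone at 0.73 and 0.81, and 48 lie below the dotted line. The members' median difference of the responses, −0.12, is 0.01 relative to cytosolic ribosomal protein genes, against 0.14 over all genes.

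The responses under both labels come from separate kidneys. Across the 75 genes they had a Pearson r of 0.68 and a Spearman rho of 0.557, as a description over genes that are not independent. Both differences were below 0 for 59 genes and above 0 for 4. Neither these counts nor the correlations are set beside values over all genes. The difference between the responses, tested per gene, passed for 0 members in either direction, with 0.127% of all genes passing toward higher and 0.0555% toward lower values. At an unadjusted p under 0.05 by limma, 8 members were lower (7.06% of all genes) and 0 higher (7.88% of all genes). The smallest p belonged to Mrpl13 (−0.65 ± 0.14, adjusted p = 0.0575), a large-subunit protein with a bacterial counterpart, followed by Mrpl1 (−0.50 ± 0.13, adjusted p = 0.108) and Mrps22 (−0.37 ± 0.14, adjusted p = 0.242).

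The comparison of CCN2 KO IRI with WT IRI kidneys asked whether the label mattered after injury. Of 75 members, 11 (14.7%, with 5.07% of all genes tested) were lower under the CCN2 KO label and 0 were higher (7.19% of all genes). The median was −0.21, against 0.02 over all genes. It turned to 0.07 when kidneys were centred on cytosolic ribosomal protein genes, against 0.30 over all genes. The groups separated completely toward lower values in 11 members (14.7%) and in 7.24% of all genes. Large-subunit genes made up 9 of the 11 (of 48 tested) and small-subunit genes 2 (of 26), with medians of −0.19 and −0.25.

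Mrpl13 was 2.29, 2.26, 2.32 and 2.41 in WT IRI and 1.84, 1.60, 1.76, 1.99 and 1.80 in CCN2 KO IRI kidneys. The groups did not overlap, and the difference of −0.53 ± 0.09 (SE, adjusted p = 0.00453) held with any 1 kidney left out. Its sham values, 2.25, 2.19, 2.27 and 2.28 under the WT label, were close to those of WT IRI. Mrpl20 was 6.09, 5.90, 6.22 and 6.20 in WT IRI and 5.60, 5.81, 5.60, 5.82 and 5.65 in CCN2 KO IRI kidneys (−0.40 ± 0.08, adjusted p = 0.00967). It too held with any 1 kidney left out, and in sham kidneys its difference was −0.28 (adjusted p = 0.26). Mrps18c, the S18 relative of the small-subunit platform, was 3.86, 3.91, 3.84 and 4.00 against 3.33, 2.99, 3.44, 3.68 and 3.01 (−0.61 ± 0.16, adjusted p = 0.0233). This call was lost without 33C3, 33C4 or 33D6.

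Mrpl57, a short mitochondria-specific protein, was 3.52, 3.23, 3.21 and 3.55 against 2.86, 2.74, 2.53, 2.74 and 3.08 (−0.59 ± 0.13, adjusted p = 0.0135). The groups did not overlap, and neither did those of Mrpl35 (−0.37 ± 0.10, adjusted p = 0.0287), Mrps18a (−0.33 ± 0.08, adjusted p = 0.0183) and Mrps14 (−0.37 ± 0.11, adjusted p = 0.0386). Mrps30 was 4.74, 4.50, 4.53 and 4.54 in WT IRI and 4.06, 4.37, 4.34, 4.27 and 4.18 in CCN2 KO IRI kidneys (−0.33 ± 0.09, adjusted p = 0.0252). It was the only member to rise with IRI in WT kidneys and be lower under the CCN2 KO label after IRI. Its call between the IRI groups was lost without 33C1, 33C3, 33C4, 33D2 or 33D6. The Mrpl35 call was lost without 33C1, 33C3, 33C4, 33D2 or 33D4, that of Mrps18a without 33C3 or 33C4, and that of Mrpl57 without 33C4. For Mrps14 it was lost without 33C1, 33C3, 33C4, 33D2, 33D4, 33D5 or 33D6. The other 3 of the 11, whose groups overlapped, were Mrpl54 (−0.57), Mrpl27 (−0.50) and Mrpl14 (−0.40).

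Of the S18 relatives, Mrps18b was at 4.19 ± 0.08 (SD, n = 4) in WT IRI and 4.13 ± 0.15 (n = 5) in CCN2 KO IRI kidneys and did not pass between them (adjusted p = 0.857), while Mrps18c and Mrps18a were lower under the CCN2 KO label. After IRI in CCN2 KO kidneys Mrps18a fell by 0.32 (adjusted p = 0.00778) and Mrps18c by 0.53 (adjusted p = 0.0217, lost without 32B5, 33B3 or 33D3), whereas in WT kidneys their differences of −0.14 and −0.26 did not pass.

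Leaving out 33C4, 33C3, 33D2, 33D4 or 33D6 lowered both the count of 11 and that of all genes. Only 2 members (Mrpl13 and Mrpl20) were lower without 33C4, 3 without 33C3, 5 without 33D2 and 6 without 33D4 or without 33D6. In the same order the 639 genes lower among all 12608 became 132, 231, 407, 362 and 310. Other kidneys left out raised that number, to 777 without 32B5. When kidneys were centred on cytosolic ribosomal protein genes, which moved the median of all genes from 0.02 to 0.30, 2 members (Mrpl50 and Mrps23) were higher and 0 lower, with 1618 of all 12608 genes higher and 89 lower. In the same comparison 3 of 12 proximal tubule markers were higher and 0 lower, and their summed RPKM was 3017 to 4457 in WT IRI and 3895 to 5391 in CCN2 KO IRI kidneys (3964 to 4561 in WT sham and 3831 to 4809 in CCN2 KO sham). Also 3 of 6 loop of Henle, 3 of 6 distal convoluted tubule, 3 of 7 endothelial and 4 of 6 fibroblast and pericyte markers were higher. Of the others, 1 of 7 collecting duct and 1 of 7 tubular injury markers were lower. Of 12 leukocyte markers 7 were tested and 1 was higher, and 0 of 5 podocyte markers passed. These marker counts are without centring, where 7.19% of all genes were higher and 5.07% lower. Of these lists Ly6g was at the floor in 16 kidneys and Lum and Cd79a in 7. The part of cell composition and of injury in the members' differences was not tested. Kidney 33D6, with the lowest injury markers, had a summed member RPKM of 1508, within the 1410 to 1566 of the other 4 in its group.

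**Figure D3:**
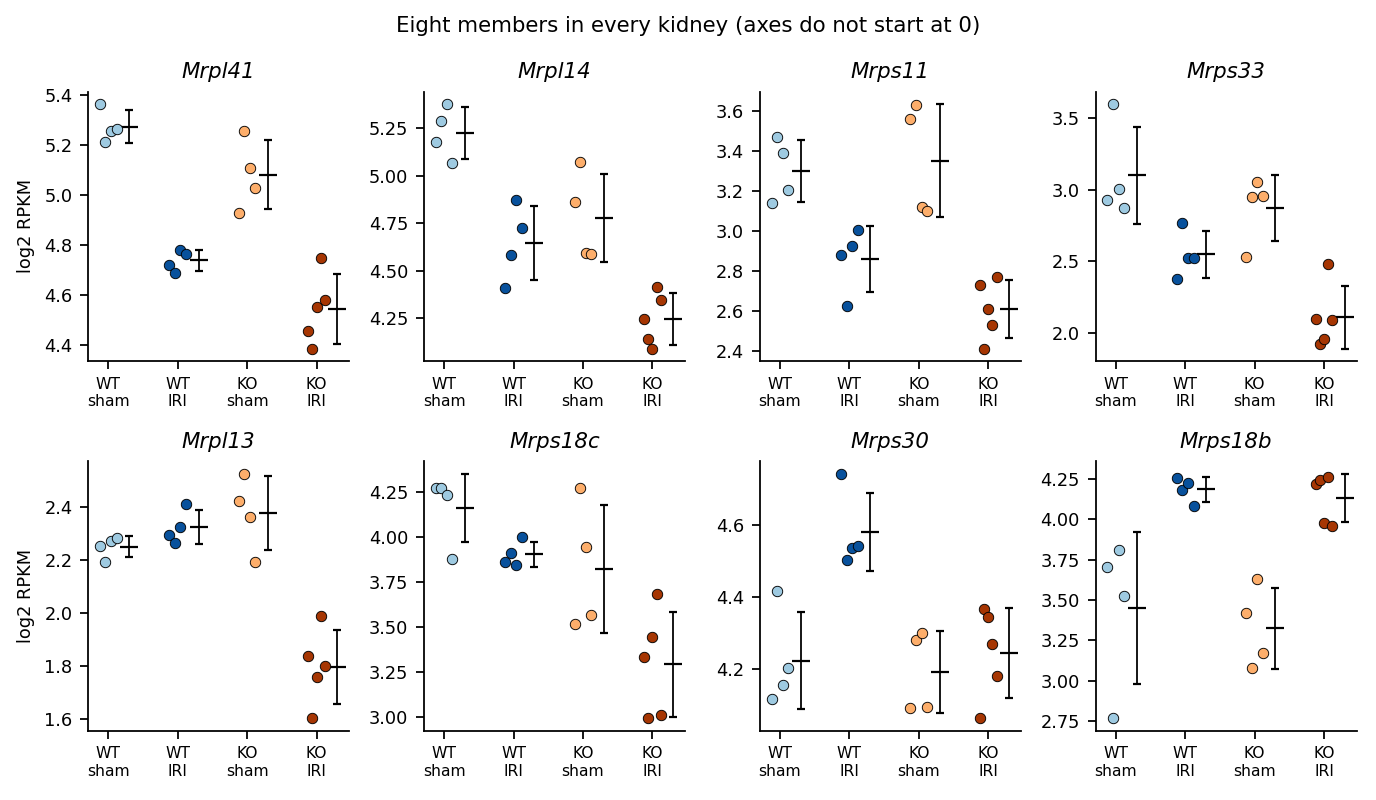
Log2 RPKM of 8 members in every kidney (points) by group, with mean and SD (bars) beside them; KO stands for CCN2 KO, and the vertical axes do not start at 0. The WT IRI and CCN2 KO IRI points of Mrpl13, Mrps18c and Mrps30 do not overlap, whereas those of Mrps18b do, at means of 4.19 and 4.13.

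Sham kidneys gave the background of the label without injury. Neither direction held a member that passed by limma (0% of all genes higher and 0% lower). The median was −0.09, against 0.02 over all genes. Centred on cytosolic ribosomal protein genes it was 0.05, against 0.16 over all genes. At an unadjusted p under 0.05, 8 members were lower (6.09% of all genes) and 1 was higher (6.92% of all genes), and 4 members (5.33%) were separated toward lower values, with 2.52% of all genes. The smallest p-values belonged to Mrpl14 (5.17, 5.28, 5.38 and 5.06 in WT and 4.86, 5.07, 4.59 and 4.59 in CCN2 KO sham, −0.45 ± 0.12, adjusted p = 0.224), Mrpl22 (−0.53 ± 0.15, adjusted p = 0.224) and Mrpl20 (−0.28 ± 0.09, adjusted p = 0.26). Mrpl14 passed without kidney 32B5 (−0.54, adjusted p = 0.0492), a fit in which 72 of all 12608 genes were higher and 64 lower.

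Other genes of mitochondrial translation were read beside the family. Over all 12608 genes tested 20.3% fell with IRI in WT kidneys and 13.2% in CCN2 KO kidneys. Between the IRI groups 7.19% of all genes were higher and 5.07% lower under the CCN2 KO label. Of 6 further mitoribosomal proteins without an Mrp symbol, 3 fell with IRI in WT and 4 in CCN2 KO kidneys, among them Gadd45gip1 (−0.47, adjusted p = 0.0120, and −0.40, adjusted p = 0.0338) and Dap3, a GTP-binding small-subunit protein (−0.27 and −0.36). Ict1, a peptidyl-tRNA hydrolase built into the large subunit, was lower under the CCN2 KO label after IRI (−0.55, adjusted p = 0.00900). Of 16 translation factors 4 fell in WT and 5 in CCN2 KO kidneys, among them Mtif3, an initiation factor (−0.69 and −0.50), and Guf1, an elongation factor (−0.48 and −0.56). After IRI, Lrpprc, which stabilizes mitochondrial messenger RNAs, was higher under the CCN2 KO label (0.53, adjusted p = 0.00956) and Mrrf, the recycling factor, lower (−0.39, adjusted p = 0.0233).

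Assembly and ribosomal RNA processing factors moved both ways. Of 24, 7 (29.2%) were lower and 2 higher in WT kidneys, and 8 (33.3%) lower and 2 higher in CCN2 KO kidneys. Over all genes 20.3% and 13.2% fell and 19.5% and 14.3% rose. Mpv17l2 (−0.51 and −0.39) and Mettl17 (−0.58 and −0.59) fell and Trmt10c, of the mitochondrial RNase P, rose (0.93 and 0.52) under both labels. Of 17 mitochondrial aminoacyl-tRNA synthetases 6 (35.3%) fell and 1 rose in WT, and 4 (23.5%) fell and 1 rose in CCN2 KO kidneys. Ears2 was the 1 that rose (0.63 and 0.46), and 0 differed between the labels after IRI (1 lower at an unadjusted p under 0.05). None of 11 tested RNAs from mitochondrial DNA passed in either response or between the IRI groups, with 0 at an unadjusted p under 0.05 and medians of 0.07, 0.00 and −0.03. In CCN2 KO sham against WT sham kidneys none passed either, with 2 of the 11 lower and 0 higher at an unadjusted p under 0.05 and a median of 0.22. Libraries were made from poly(A) RNA.

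Of 9 regulators of nuclear genes for mitochondria, Myc (4.95), Pprc1 (2.05), Gabpb1 (0.92), Yy1 (0.74) and Nrf1 (0.53) rose and Esrra (−0.57) and Ppargc1a (−0.57) fell with IRI in WT kidneys. In CCN2 KO kidneys Myc (2.23), Pprc1 (1.27), Gabpa (0.42) and Yy1 (0.38) rose and Esrra (−0.51) and Ppargc1a (−0.56) fell. Over all genes 19.5% rose and 20.3% fell in WT kidneys, and 14.3% rose and 13.2% fell in CCN2 KO kidneys. Ppargc1a, the coactivator PGC-1α, was 2.60, 3.29, 2.79 and 3.07 in WT sham and 2.24, 2.24, 2.49 and 2.48 in WT IRI kidneys. Myc, a growth regulator, was lower under the CCN2 KO label after IRI (−1.53, adjusted p = 0.0368), with 2.44 in 33D6 and 3.92 to 5.49 in the others of its group.

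Cytosolic ribosomal proteins were encoded by 86 rows, of which 81 were tested. With IRI in WT kidneys 1 gene fell and 2 rose (20.3% and 19.5% of all genes), with a median of −0.07. In CCN2 KO kidneys 13 of 81 fell and 0 rose (13.2% and 14.3% of all genes), with a median of −0.21. After IRI 9 of 81 were lower and 0 higher under the CCN2 KO label (median −0.26). Of all genes 5.07% were lower and 7.19% higher in that comparison. Within groups the cytosolic genes moved together from kidney to kidney, with a mean pairwise r of residuals of 0.598, against 0.133 among the 75 mitochondrial ones and 0.00263 among all genes.

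Of the 76 members, 33 start within 1000 bases of a protein-coding gene on the opposite strand, and for 29 both genes were tested. Member and neighbour had a Pearson r of 0.09 over these 29 pairs for the WT response and 0.28 for the CCN2 KO response, or 0.28 and −0.02 without Mrps18b. Of the neighbours 9 fell and 6 rose in WT kidneys (20.3% and 19.5% of all genes). In CCN2 KO kidneys 10 fell and 4 rose (13.2% and 14.3% of all genes). Mrpl46 and Mrps11 are each other's neighbour, with annotated ends that overlap, so they enter the 29 pairs and the counts of neighbours from both sides. Overlap of this kind limits some values: 22 members overlap a protein-coding gene on the opposite strand and 4 one on the same strand, and since the strand setting of the read counting is not given in the sources used here, reads of the former pairs may not be told apart.

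Ppp1r10, which encodes a regulatory subunit of protein phosphatase 1, starts 45 bases from Mrps18b, head to head on chromosome 17, within the promoter printed above. It was 2.88, 3.31, 3.04 and 2.83 in WT sham and 2.80, 2.60, 2.06 and 2.26 in WT IRI kidneys, a fall of 0.59 (SE 0.15, adjusted p = 0.00592) where Mrps18b rose. Under the CCN2 KO label it went from 2.84, 2.31, 2.70 and 2.64 to 3.28, 3.33, 3.30, 3.17 and 3.36, a rise of 0.67 ± 0.14 (SE, adjusted p = 0.00309). All 5 of these IRI kidneys were above their sham kidneys and above all WT IRI kidneys. The difference of its responses passed (1.25 ± 0.21, adjusted p = 0.0186), while for Mrps18b that difference was 0.07 ± 0.25 (adjusted p = 0.925). Mrps18b also overlaps the antisense transcript Gm16279, whose differences of −1.12 and −1.06 did not pass.

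**Figure D4:**
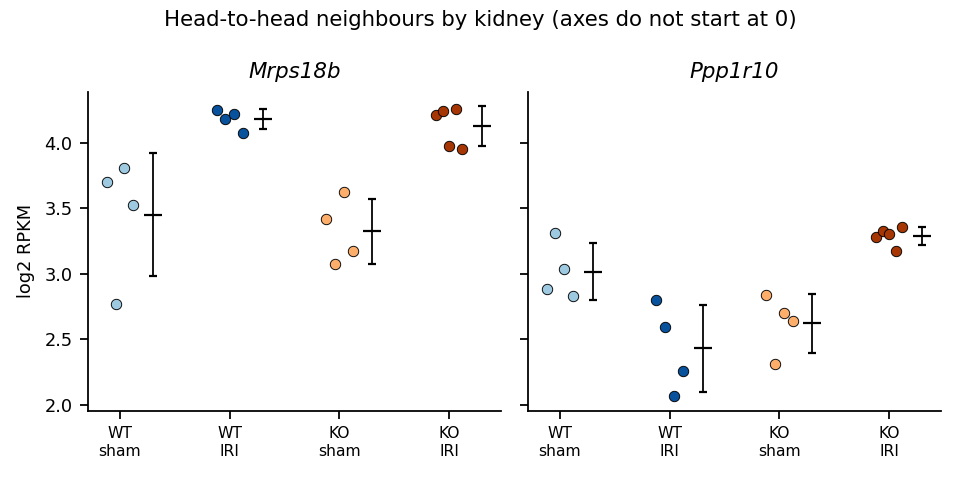
Log2 RPKM of Mrps18b and of Ppp1r10, which starts 45 bases away on the opposite strand, in every kidney by group, with mean and SD beside the points; KO stands for CCN2 KO and the axis does not start at 0. Mrps18b is higher in IRI than in sham kidneys under both labels, whereas Ppp1r10 is lower in WT IRI (mean 2.43) and higher in CCN2 KO IRI (mean 3.29) than in its sham group (means 3.02 and 2.62).

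Genes of the family are short, with a median exonic length of 2255 bases, against 4121 over all tested genes with a length, and 38 of the 75 were in the shortest quartile of all genes (up to 2435 bases). Length went with the differences of all genes, with a Spearman rho of 0.268 for the CCN2 KO response, 0.242 for CCN2 KO IRI against WT IRI and 0.096 for the WT response. In the shortest quartile the median difference between CCN2 KO IRI and WT IRI was −0.18 over all genes and −0.20 over members. In the other quartiles it was 0.03, 0.09 and 0.08 over all genes and −0.20, −0.21 and −0.29 over the 17, 9 and 11 members there. For the WT response members had medians of −0.28, −0.21, 0.05 and −0.04 from the shortest to the longest quartile, and 16 of the 21 that fell were in the shortest. After adjustment for length the medians of the members were −0.14 for the WT response, −0.18 for the CCN2 KO response and −0.18 for CCN2 KO IRI against WT IRI.

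**Figure D5:**
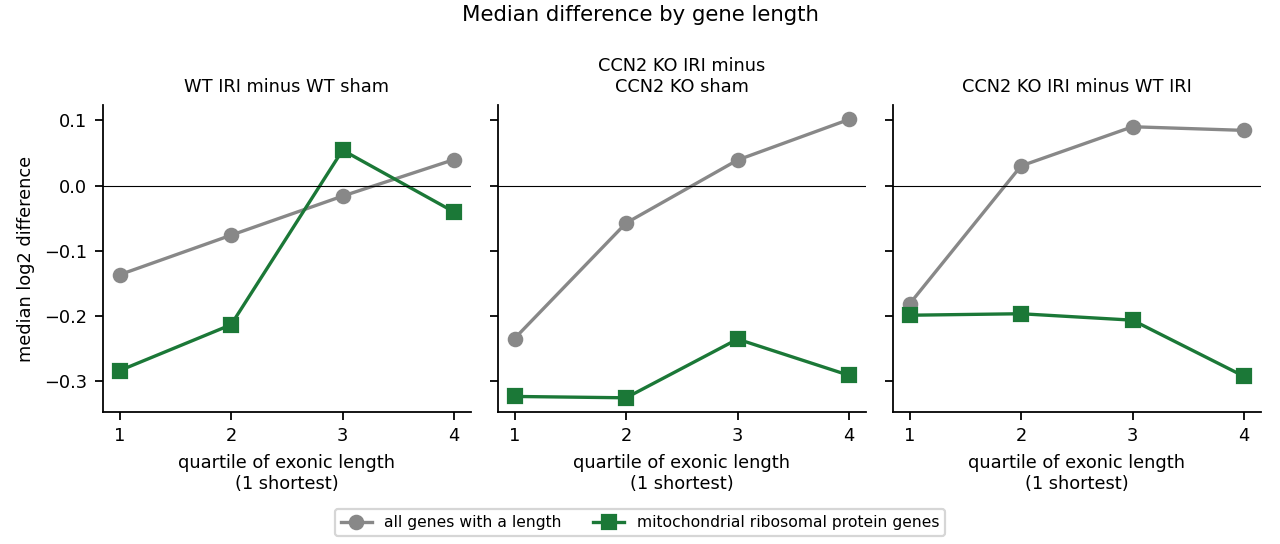
Median log2 difference of all genes with a length (grey circles) and of members (green squares) in quartiles of exonic length, shortest first, for 3 comparisons. In the right panel members lie between −0.29 and −0.20 in every quartile while all genes run from −0.18 to 0.09. Relative to cytosolic ribosomal protein genes the median of the members in that comparison is 0.07, against 0.30 over all genes.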

How the data were processed

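Cortex RNA of 17 mice was measured by poly(A) sequencing. The authors aligned reads to GRCm38 with STAR 2.4.2a, counted them per gene with HTSeq 0.6.1p1, and deposited quantile-normalized log2 RPKM computed with edgeR; strand setting and annotation of the counting are not given in the sources used here. Of 30 sample columns, 13 matched no labelled sample and entered no step here; whether they took part in the authors' normalization is not stated, and if so every value used depends on them too. Counts were not at hand, so the study's count model was replaced by limma 3.58.1 (R 4.3.3) on the deposited log2 values, with 1 mean for each of 4 groups, eBayes with a trend, and Benjamini-Hochberg adjustment over the 12608 genes with at least 4 kidneys above log2 0 (RPKM of 1), at a threshold of 0.05, two-sided. The fit was tested on simulated data. Log2 differences are shown with limma's SE. P-values measure the spread between mice. Positions and exonic lengths came from GENCODE M21 (GRCm38), where all 76 members matched by identifier.

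Members, role lists and tests were chosen with earlier results of these data known. Members are named when, in a comparison, they are among the 8 highest or 8 lowest past the test with groups that do not overlap, or have the 3 smallest p where none passed, or the 3 highest or lowest levels, or lie below the filter, or have a role chosen by hand (stalk, decoding centre, S18 relatives and others); Mrps21, Mrpl54, Mrpl50, Mrps23 and Mrpl46 were named after their values were seen. Alternatives covered filter, pseudocount of 1, scaling, gene length, sample weights, prior variance, samples, title prefix, threshold and each kidney left out.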

Additional observations from a re-analysis of the deposited data

Results flagged for a closer look

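In groups of 4 or 5 kidneys, a value was singled out where its gap to the nearest other kidney took most of the range of the group (Dixon's test). Chance does so in about 1 of 20 groups, and 13 values were singled out in 148 groups of the 37 named members. Kidney 32B5, a CCN2 KO sham, was high for Mrpl11 (3.99, the others 3.38 to 3.46), Mrps34 (4.91, the others 4.51 to 4.56) and Mrpl53 (−1.82, the others at the floor). Kidney 33D3, a CCN2 KO IRI, was low for Mrpl3 (2.58, the others 2.96 to 3.10) and Mrps36 (−0.53, the others 1.06 to 1.59). Other CCN2 KO IRI values were high for Mrpl18 in 33D6 (4.53) and Mrpl22 in 33D5 (4.19). In WT IRI, Mrpl1 was low in 33C4 (2.38), Mrpl34 low in 33C2 (5.47), Mrpl12 high in 33C3 (6.59) and Mrps30 high in 33C1 (4.74). In WT sham, Mrpl34 was low in 32A2 (6.08) and Mrps18c low in 33A2 (3.88).

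For Mrpl13 the mean differences between IRI and sham had opposite signs under the WT and CCN2 KO labels. The WT difference, 0.07, did not pass by limma (adjusted p = 0.585) and its groups overlapped. The difference between the responses was −0.65 on the log2 scale. The 4 WT IRI kidneys lay 0.01 to 0.16 above the mean of their sham group, and the 5 CCN2 KO IRI kidneys 0.39 to 0.77 below theirs. The test of the difference of −0.65 gave an adjusted p of 0.0575 by limma, which misses the threshold. With 1 kidney left out, it passed only without 33B4 (adjusted p = 0.0467) or without 33D5 (adjusted p = 0.0463), and with no other kidney left out.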

How the results depend on the processing

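No paired analysis was possible because the groups share no replicate number. Main counts were 26 members for WT IRI against WT sham, 37 for CCN2 KO IRI against CCN2 KO sham, 11 for CCN2 KO IRI against WT IRI and 0 for sham and for the difference of responses. Centring on cytosolic ribosomal protein genes gave 6, 3 and 2, and the length adjustment 16 and 19 for the responses. A threshold of 0.01 gave 12, 17 and 2. Over all 12608 genes that threshold gave 1723 higher and 1600 lower, 1017 and 754, and 166 and 101. For the CCN2 KO response the title prefix as a term gave 19 and titles beginning with 33 alone 12. For CCN2 KO IRI against WT IRI no filter gave 7, with 626 of all 22336 genes higher and 420 lower. Sample weights gave 23 there, while all genes went from 907 higher and 639 lower to 1753 and 1365. For the difference of responses weights gave 2 (Mrpl1 and Mrpl13), while all genes went from 16 higher and 7 lower to 141 and 90. Leaving out 1 kidney gave 18 to 32, 23 to 38, 2 to 15, 0 to 1 and 0 to 1. For CCN2 KO IRI against WT IRI all genes then ran from 219 higher and 132 lower (without 33C4) to 1074 and 777 (without 32B5). Centring turned Mrpl10 in the CCN2 KO response to 0.011 and length adjustment Mrpl34 to 0.045. Of 49 calls of named members, 49 were kept with a pseudocount of 1, 28 with the length adjustment and 8 with that centring. Depth is unknown, so no counting error is given.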
